A study of Oryza sativa with 14 samples.

Results

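The comparison described here sets rice line htg3_cr12 (cr12) against rice line htg3_cr2 (cr2) after heat. Its members were chosen by the labels alone: the heat-treated libraries, 7 of the 14 in the series, of which 2 are from cr12, 2 from cr2 and 3 from wild type (WT). RNA came from leaves of Zhonghua 11 rice seedlings at the 4-leaf stage. The cr12 and cr2 plants are transgenic htg3 lines, WT is wild-type Zhonghua 11, and all 7 libraries are from plants held at 42 °C for 0.5 h before harvest. The other 7 libraries are from untreated plants of the same genotypes, 2 from cr12, 2 from cr2 and 3 from WT. Each mutant line is a single transgenic line. The labels give neither the edit carried by each line nor the locus of HTG3, so the targeted gene was not checked. Nor do they say whether replicates were different plants, and the p-values therefore reflect only the variation among these libraries, which may be technical. The series set out to find genes downstream of HTG3, and the comparison of the lines asks where separate lines of the same mutant differ from each other and which of them then stands away from WT.

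A rice leaf exposed to acute heat switches on heat shock factors, transcription factors that bind the promoters of chaperone genes, and the chaperones in turn hold or refold damaged proteins. At the same time transcripts for photosynthesis and chlorophyll synthesis usually decline. Flowering in rice is set by florigens, small proteins made in leaves under the control of daylength, such as HD3A, and the leaf responds to florigen by expressing MADS-box genes such as MADS14.

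After heat cr12 and cr2 differed at 1620 of 28823 tested genes, 5.62% of them, with 627 higher (2.18%) and 993 lower (3.45%) in cr12. A gene was called where the quasi-likelihood F test of edgeR gave it a Benjamini-Hochberg adjusted p under 0.05. Of the 1620 genes, 668 differed at least 2-fold (291 higher, 377 lower), and the median absolute log2 change was 0.90. The cr12 and cr2 libraries did not overlap for any of the 1620, against 48.5% of all tested genes whose line libraries did not overlap, so separation of 2 libraries from 2 carries little weight by itself. The 7 libraries held 94.3 to 99.4 M counts (23.6 to 24.9 M fragments). Levels of log2(CPM + 1) correlated at 0.984 between the cr12 replicates and 0.985 between the cr2 replicates, at 0.978 to 0.986 among WT, and at 0.951 to 0.977 between groups. The call count leaned on single libraries: it was 87 without cr12_heat replicate 2, 334 without cr2_heat replicate 2, 669 without cr2_heat replicate 1 and 1236 without cr12_heat replicate 1.

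Both lines departed from WT. Against WT after heat cr12 differed at 1594 genes (5.53% of those tested, with 666 higher, 2.31%, and 928 lower, 3.22%), and cr2 at 2252 genes (7.81%, with 1197 higher, 4.15%, and 1055 lower, 3.66%). These comparisons share the WT libraries and share each line's libraries with the comparison of the lines. Of the 1620 genes, 432 (26.7%) were called against WT in cr12 only, 491 (30.3%) in cr2 only, 48 (2.96%) in both on opposite sides of WT, 12 (0.741%) in both on the same side, and 637 (39.3%) in neither. Among genes higher in cr12 the departing line was more often cr2, with 258 called in cr2 only and 119 in cr12 only. Among genes lower in cr12 it was more often cr12, with 313 called in cr12 only and 233 in cr2 only. Over both directions the balance leaned on single libraries, of WT and of cr2. Without cr2_heat replicate 2, which leaves 1 heat-treated cr2 library, more genes were called in cr12 only than in cr2 only. The balance was 450 in cr12 only and 343 in cr2 only without WT_heat replicate 2, and 134 and 412 without WT_heat replicate 1. A fit to the heat-treated libraries alone gave 84 in cr12 only and 239 in cr2 only. Which line departed more often is therefore not settled. The split by direction was not computed under any alternative, so it is not settled either. WT lay between the lines for 1346 of the 1620 genes, and cr12 was the line farther from WT for 823 and cr2 for 797. The 1620 genes were picked for a gap between the lines, which by itself favours a WT level within that gap. The share over all tested genes was not computed, so the 1346 do not show that the lines moved to opposite sides.

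Described by function, leaves of cr12 carried less transcript for photosynthesis, antenna and chlorophyll synthesis genes than leaves of cr2, and more for the floral identity gene MADS14, some heat shock factors, some defence regulators and the chlorophyll breakdown gene SGR. Of 260 genes on 28 functional lists, 251 were tested and 43 were called (17.1%, against the 5.62% of all tested genes), 21 higher and 22 lower in cr12. The lists were chosen with earlier results of these data known, so these shares cannot be read as an excess of calls. The plot of the lists shows their changes. Of the 21 higher in cr12, 14 were called against WT in cr2 only, 3 in cr12 only and 4 in neither. Of the 22 lower in cr12, 5 were called against WT in cr2 only, 4 in cr12 only and 13 in neither. All but 1 of these 43 calls, that of MADS14, were lost without cr12_heat replicate 2, and all but those of MADS14 and CHLD were lost without cr2_heat replicate 2, with no change of direction under any alternative run. Without cr12_heat replicate 1, 15 of the 43 were lost, and without cr2_heat replicate 1, 29 were.

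**Figure D1:**
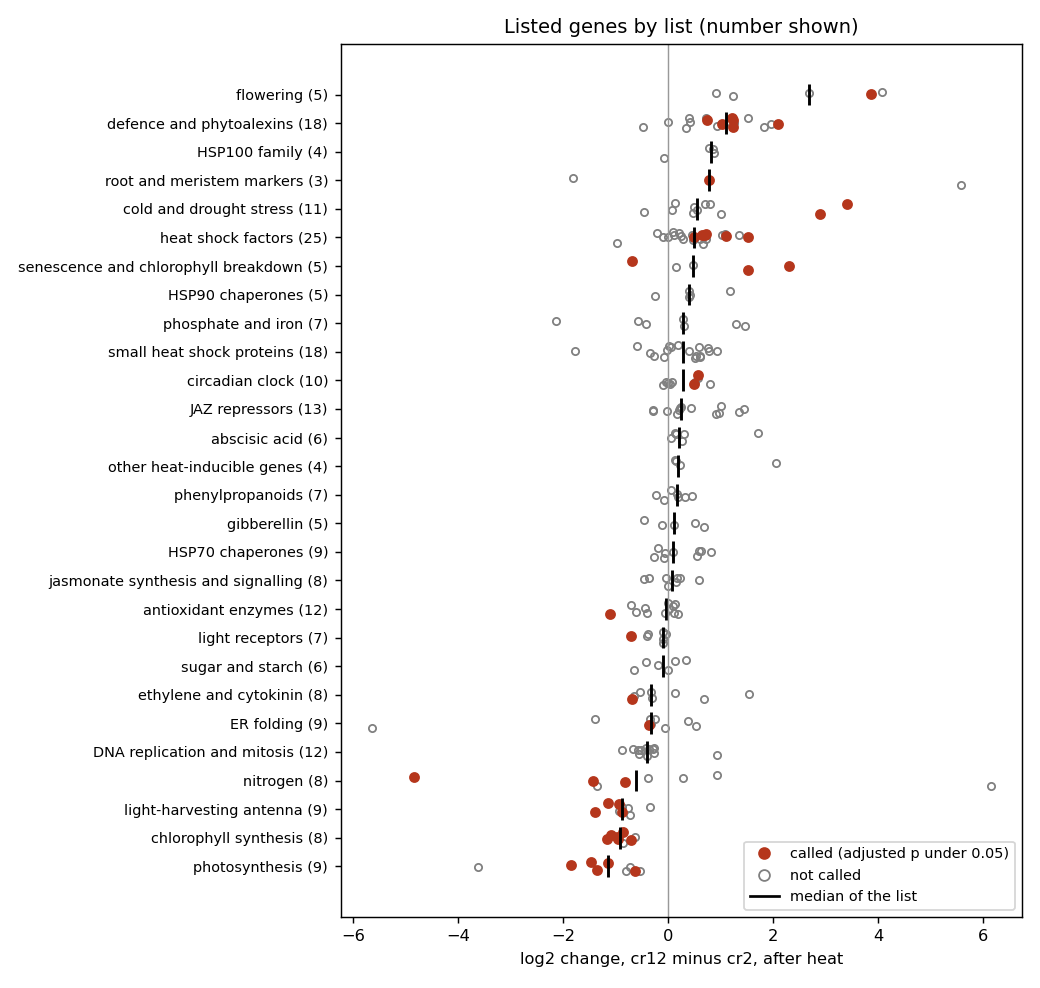
Log2 change of the tested list members, cr12 minus cr2 after heat (horizontal axis), grouped by list (vertical axis, with the number shown). Filled points are called and open points are not, and the bar is the median of the list. All 9 photosynthesis, 9 antenna and 8 chlorophyll synthesis genes lie left of 0.

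MADS14 had the largest difference among the called listed genes described here that were higher in cr12. MADS14, a MADS-box gene of floral identity, stood at 4.64 and 8.58 CPM in cr12, at 0.66 and 0.255 CPM in cr2, and at 14.7, 14.8 and 13.9 CPM in WT. The cr2 libraries were the lowest, the cr12 libraries lay between cr2 and WT, and no groups overlapped. The difference of the lines was a log2 change of 3.85 ± 0.54 (SE, adjusted p = 0.0034 by edgeR), and cr2 against WT gave -4.98 ± 0.54 (adjusted p = 0.00098), while cr12 against WT gave -1.13 ± 0.42 (adjusted p = 0.14).

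The florigen HD3A had 1.05 and 1.16 CPM in cr12, 0.346 and 0 CPM in cr2, and 4.16, 3.35 and 2.8 CPM in WT. Its difference of the lines, 2.68 ± 0.88, gave no call (adjusted p = 0.11), although cr2 against WT did (-4.31 ± 0.88, adjusted p = 0.017). HD3A was called without cr2_heat replicate 1 (adjusted p = 0.011), where the remaining cr2 library was at 0 and the fitted 9.74 depends on the prior count, and it gave 1.70 (adjusted p = 0.23) without cr2_heat replicate 2. HD1, a daylength-dependent regulator of florigen genes, had 1.83 and 1.36 CPM in cr12, 0.973 and 0.734 CPM in cr2, and 1.54, 1.01 and 1.89 CPM in WT (0.90 ± 0.39, adjusted p = 0.23). LOC_Os07g15770 and LOC_Os10g32600 of the same list stood at or under 0.146 CPM in all 7 libraries. MADS14 kept its call, at 3.34 to 4.71, with either library of either line left out.

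**Figure D2:**
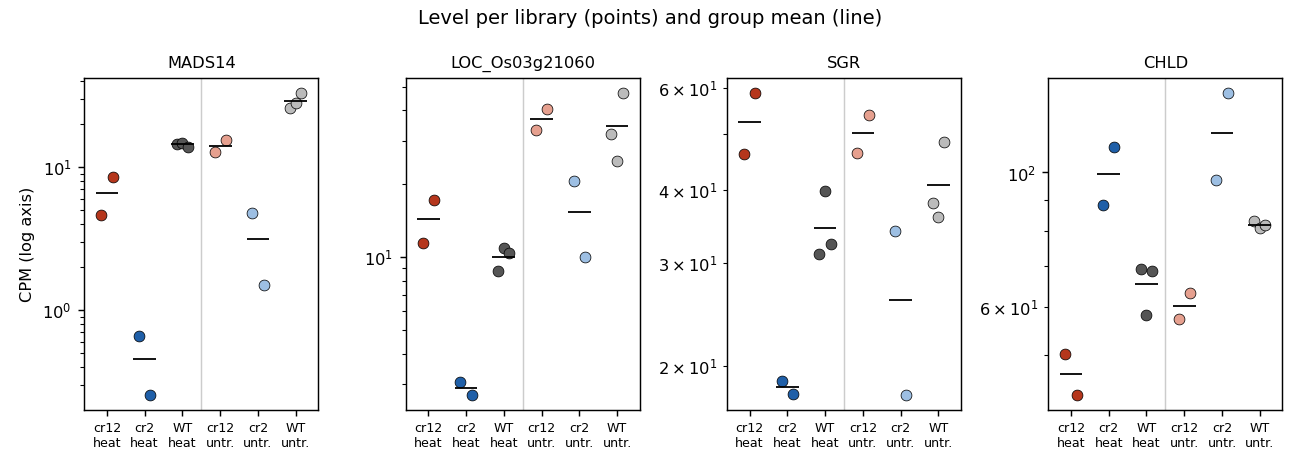
CPM per library (points, log axis) and group mean (line) for MADS14, LOC_Os03g21060, SGR and CHLD, with the heat-treated cr12, cr2 and WT groups left of the grey line and the untreated groups right of it. After heat cr2 lies lowest for the first 3 genes and highest for CHLD, and the same order of cr12 and cr2 means is seen in untreated leaves.

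Genes of chlorophyll breakdown and leaf senescence split. SGR (STAY-GREEN), which starts chlorophyll degradation by removing its magnesium, had 46.1 and 58.7 CPM in cr12, 18.8 and 17.9 CPM in cr2, and 31.1, 39.8 and 32.4 CPM in WT. Both cr2 libraries lay below every WT library and both cr12 libraries above. The lines differed by 1.51 ± 0.26 (adjusted p = 0.008), with cr2 below WT (-0.91 ± 0.24, adjusted p = 0.04) and cr12 not called (0.60 ± 0.23, adjusted p = 0.14). LOC_Os03g21060, placed on the list as a senescence regulator, had 11.4 and 17.2 CPM in cr12, 3.06 and 2.72 CPM in cr2, and 8.75, 10.9 and 10.4 CPM in WT. It was 2.31 ± 0.36 higher in cr12 (adjusted p = 0.005), and cr2 was again the line below WT (-1.79 ± 0.34, adjusted p = 0.012).

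The third called member of that list went the other way. NOL, a subunit of chlorophyll b reductase, had 9.09 and 7.97 CPM in cr12, 13.8 and 13.8 CPM in cr2, and 11.6, 9.76 and 10.8 CPM in WT (-0.69 ± 0.15, adjusted p = 0.023). NYC1, the partner subunit, stood at 101 and 106 CPM in cr12 and 102 and 84.1 CPM in cr2 (0.15 ± 0.14, adjusted p = 0.65). Of 5 tested members 2 were higher and 1 lower in cr12, and the median was 0.47, against -0.00217 over all tested genes. SGR gave 1.37 (adjusted p = 0.082) and LOC_Os03g21060 2.02 (0.059) without cr12_heat replicate 2, and without cr2_heat replicate 2 they gave 1.5 (0.075) and 2.25 (0.058). NOL lost its call without any one of the 4 line libraries. The median of the list was 0.76 without cr2_heat replicate 1 and 0.27 without cr2_heat replicate 2.

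Chlorophyll synthesis genes were lower in cr12 in 6 of 8 tested members, with none higher and a median of -0.91. Magnesium chelatase, which commits protoporphyrin to chlorophyll, is built of the subunits CHLD, CHLI and CHLH, and all were lower in cr12. CHLD had 50.1 and 43 CPM in cr12, 88.5 and 110 CPM in cr2, and 69.4, 58.3 and 68.7 CPM in WT. The lines lay on opposite sides of WT without overlap, with a difference of -1.09 ± 0.16 (adjusted p = 0.0041); cr2 was above WT (0.60 ± 0.14, adjusted p = 0.028), and cr12 was not called (-0.49 ± 0.15, adjusted p = 0.073). CHLI had 89.4 and 85.2 CPM in cr12, 157 and 187 CPM in cr2, and 144, 121 and 111 CPM in WT (-0.98 ± 0.18, adjusted p = 0.01). CHLH, the porphyrin-binding subunit, had 523 and 389 CPM in cr12, 884 and 1160 CPM in cr2, and 815, 758 and 525 CPM in WT (-1.16 ± 0.26, adjusted p = 0.025). The lowest WT library lay just above the higher cr12 library for CHLH, and all WT libraries lay below cr2.

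PORA, a light-dependent protochlorophyllide oxidoreductase, had 144 and 159 CPM in cr12, 257 and 334 CPM in cr2, and 132, 153 and 132 CPM in WT. Here cr12 overlapped WT and cr2 stood apart (-0.96 ± 0.25 between the lines, adjusted p = 0.044, and 1.09 ± 0.22 for cr2 against WT, adjusted p = 0.017). LOC_Os05g28200 and LOC_Os10g35840 of the same list were lower, with log2 changes of -0.72 and -0.86, and the paralogue PORB, at -0.63, gave no call (adjusted p = 0.11). The list had no call and a median of -0.82 without cr12_heat replicate 2, and without cr2_heat replicate 2 it had 1, CHLD, and a median of -0.73. Of the 6 calls 3 were kept without cr12_heat replicate 1 and 2, CHLD and CHLI, without cr2_heat replicate 1.

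Photosynthesis and antenna genes were lower in cr12 as well, in 5 of 9 and 4 of 9 tested members, with medians of -1.16 and -0.89 and none higher. LOC_Os03g39610, an antenna gene, is on both lists. The largest called change was at LOC_Os12g19470, listed as a small subunit of Rubisco, the enzyme that fixes carbon dioxide. It had 325 and 193 CPM in cr12, 773 and 1091 CPM in cr2, and 657, 648 and 451 CPM in WT. The cr12 libraries were below all WT libraries and the cr2 libraries above (-1.85 ± 0.31 between the lines, adjusted p = 0.0073). In this case cr12 was the line called against WT (-1.18 ± 0.29, adjusted p = 0.037), with cr2 at 0.67 ± 0.27 (adjusted p = 0.15). The other small-subunit genes on the list, LOC_Os12g17600 and LOC_Os12g19381, were lower, with log2 changes of -1.36 ± 0.36 and -1.47 ± 0.30 (adjusted p = 0.048 and 0.016). These copies are near-identical and may share reads, which leaves the value of each one uncertain.

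LOC_Os02g10390, listed as an antenna protein, had 847 and 631 CPM in cr12, 1885 and 2004 CPM in cr2, and 1351, 1958 and 1448 CPM in WT. It was the antenna gene with the largest change, -1.40 ± 0.25 (adjusted p = 0.0093), and cr12 was the line below WT (-1.10 ± 0.23, adjusted p = 0.023), while the cr2 libraries overlapped WT's range at its top. RCA, the activase that frees Rubisco of inhibitors, had 1209 and 809 CPM in cr12, 1647 and 1867 CPM in cr2, and 2175, 1678 and 1098 CPM in WT, with no call (adjusted p = 0.12). All 9 members of each list were lower in cr12 than in cr2, and all 9 of each had a fitted level below WT in cr12 and above WT in cr2. Neither list held a call without cr12_heat replicate 2, with medians of -0.96 and -0.69, and the same was true without cr2_heat replicate 2, with -1.08 and -0.83. The lists held 4 and 2 calls without cr12_heat replicate 1, and 2 and 1 without cr2_heat replicate 1. LOC_Os01g52240 of the photosynthesis list had a larger fitted change than any called member, -3.62 ± 1.82, without a call (adjusted p = 0.32), and stood at 122 and 0 CPM in cr12, 524 and 988 CPM in cr2, and 414, 162 and 250 CPM in WT. Without cr12_heat replicate 1, where the remaining cr12 library is at 0, it was called. In bulk tissue fewer cells of a type and less RNA per cell cannot be told apart.

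Markers of dividing cells were measured beside these lists. The summed level of the 12 tested genes of DNA replication and mitosis was 162 and 110 CPM in cr12, 129 and 199 CPM in cr2, and 40.4 to 85.1 CPM in WT, so that both lines stood above WT and overlapped each other. By edgeR none of the 12 was called between the lines, with 1 at an unadjusted p under 0.05, 0 by DESeq2 and 1 by limma voom. Of the 12, 11 were lower in cr12 than in cr2, with a median of -0.41. That median was -0.80 without cr12_heat replicate 1 and -0.07 without cr12_heat replicate 2. Against WT 6 of the 12 were called higher in cr2 (median 1.82) and 2 in cr12 (median 1.42). Of 5 root and meristem markers, the root silicon transporter LSI2 and the meristem gene OSH1 were at 0 in all 7 heat libraries, OSH15 did not exceed 0.122 CPM and LOC_Os02g44310 did not exceed 0.808 CPM. LSI1, also a silicon transporter of roots, was measured at 22.8 and 27.2 CPM in cr12, 14 and 15.3 CPM in cr2, and 17.7, 25.4 and 17.1 CPM in WT (0.77 ± 0.20, adjusted p = 0.047), a call lost without any one of the 4 line libraries (adjusted p of 0.073 without cr12_heat replicate 1 and 0.2 without cr2_heat replicate 1). The part of any difference in cell makeup in the results was not tested.

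Heat shock factors were higher in cr12 in 6 of 25 tested members, HSFA4d, HSFB2a, HSFA2c, HSFB1, HSFA4b and HSFA2e, with none lower and a median of 0.49. HSFA4d had 39.1 and 40.7 CPM in cr12, 14.5 and 13.3 CPM in cr2, and 24.8, 29.3 and 35.5 CPM in WT. No groups overlapped, and the lines differed by 1.52 ± 0.25 (adjusted p = 0.0067), with cr2 below WT (-1.10 ± 0.23, adjusted p = 0.019). HSFA2c, an activator that is strongly induced by heat in rice, had 1458 and 1621 CPM in cr12, 946 and 935 CPM in cr2, and 1218, 1460 and 1437 CPM in WT (0.71 ± 0.16, adjusted p = 0.023). Only the cr2 libraries lay outside the WT range of HSFA2c on the low side, and 1 cr12 library overlapped it. HSFB2a, of the class B factors, had 207 and 269 CPM in cr12, 101 and 122 CPM in cr2, and 115, 199 and 152 CPM in WT (1.1 ± 0.22, adjusted p = 0.014). The other 3 were higher by 0.49 to 0.70, and 5 of the 6, all but HSFB2a, were called below WT in cr2 while none was called against WT in cr12. Without cr12_heat replicate 2 or without cr2_heat replicate 2 the list held no call, with medians of 0.48 and 0.57, and without cr2_heat replicate 1 it held 1, HSFA4d.

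Chaperone genes gave no calls between the lines. By edgeR none of 18 small heat shock proteins was called (3 had an unadjusted p under 0.05, DESeq2 called 2 and limma voom 0), none of 9 HSP70 genes (2, 0 and 0), none of 5 HSP90 genes (2, 1 and 0) and none of 4 HSP100 genes (2, 2 and 1). Their medians were 0.28, 0.08, 0.40 and 0.82. The first of these was 0.67 without cr2_heat replicate 2. With 1 line library left out the HSP70 median lay between 0.02 and 0.19, and the HSP100 median was 0.51 without cr12_heat replicate 2. CLPD1, of the HSP100 family, was called without cr12_heat replicate 1. HSP101, which pulls proteins out of aggregates, had 4841 and 7092 CPM in cr12, 2971 and 3656 CPM in cr2, and 3903, 4914 and 4492 CPM in WT. The lines did not overlap, but the fitted difference, 0.85 ± 0.66, gave no call (adjusted p = 0.56). CLPB-M, its mitochondrial relative, had 1976 and 2712 CPM in cr12, 1168 and 1559 CPM in cr2, and 1635, 1955 and 1888 CPM in WT (0.78 ± 0.23, adjusted p = 0.074). At LOC_Os01g04380, of the clustered small heat shock proteins, the lines agreed within 0.02 on the log2 scale (456 and 566 CPM in cr12, 435 and 601 CPM in cr2), and both were below WT (759, 934 and 1011 CPM). Neighbouring small heat shock protein genes are near-identical too, with the same uncertainty. Against WT all 18 small heat shock proteins were lower in cr2 (median -0.49, 1 called), and 12 of 18 were lower in cr12 (-0.24, 1 called). The HSP70 medians against WT were -0.11 in cr2 and -0.05 in cr12, with 1 called lower in each. Those of HSP90 were -0.15 and 0.21 and those of HSP100 -0.42 and 0.39, with 0 called.

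**Figure D3:**
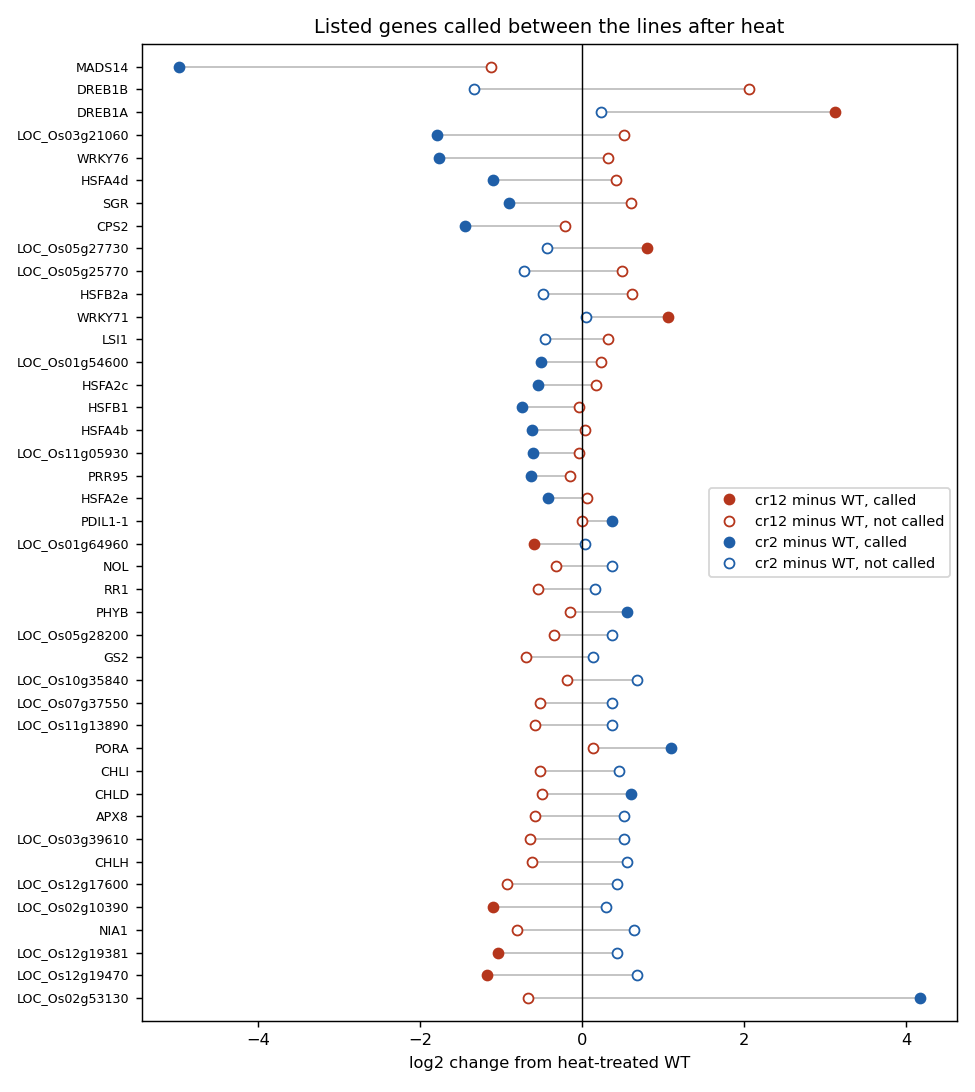
Log2 change from heat-treated WT (horizontal axis) of cr12 (red) and cr2 (blue) for 42 of the 43 listed genes called between the lines, ordered by the difference of the lines with the genes highest in cr12 at the top. Filled points are called against WT and open points are not. Among the genes higher in cr12 most filled points are blue, at the left, for cr2 below WT, and among those lower in cr12 most genes (13 of 22) have no filled point.

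Defence genes were higher in cr12 in 6 of 18 tested members, with none lower and a median of 1.1. WRKY76, a transcription factor that represses defence genes, had 55.6 and 106 CPM in cr12, 20.4 and 17.6 CPM in cr2, and 61.5, 93.2 and 39.1 CPM in WT (2.08 ± 0.51, adjusted p = 0.036). There cr12 overlapped WT and cr2 stood below it (-1.76 ± 0.48, adjusted p = 0.045). WRKY71, of the same family, had 209 and 329 CPM in cr12, 148 and 117 CPM in cr2, and 98.7, 149 and 138 CPM in WT (1.02 ± 0.24, adjusted p = 0.031), and here cr12 was the line called against WT (1.06 ± 0.21, adjusted p = 0.02). CPS2, a diterpene cyclase of phytoalexin synthesis, had 11.1 and 15.3 CPM in cr12, 7.85 and 3.35 CPM in cr2, and 16.7, 16.1 and 13.3 CPM in WT (1.24 ± 0.32, adjusted p = 0.046). LOC_Os01g54600, LOC_Os05g25770 and LOC_Os05g27730 were higher by 0.74, 1.20 and 1.23. Of these 6, 3 were called below WT in cr2 and 2 above WT in cr12. Without cr12_heat replicate 2 none of the list was called and the median was 0.95, and without cr2_heat replicate 2 only PBZ1, a pathogenesis-related gene outside the 6, was called, with a median of 0.77. Without cr2_heat replicate 1, CPS2 and LOC_Os01g54600 were called. CPS2 gave 2.005 without cr2_heat replicate 1, 0.78 (adjusted p = 0.22) without cr2_heat replicate 2 and 1.47 (0.053) without cr12_heat replicate 1.

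Among cold and drought genes, DREB1A and DREB1B, neighbouring transcription factor genes best known from cold stress, were higher in cr12, and the 9 other tested members were not called. DREB1A had 2.08 and 4.08 CPM in cr12, 0.314 and 0.51 CPM in cr2, and 0.431, 0.047 and 0.567 CPM in WT (2.89 ± 0.69, adjusted p = 0.033), with cr12 above WT (3.13 ± 0.61, adjusted p = 0.017). DREB1B had 0.901 and 1.04 CPM in cr12, 0.13 and 0.0532 CPM in cr2, and 0.129, 0.329 and 0.24 CPM in WT (3.39 ± 0.76, adjusted p = 0.025). In cr2 DREB1B stood close to 12 counts summed over the line (0.0643 CPM), so the size of its change is uncertain. By limma voom neither DREB1A nor DREB1B was called. For both genes the cr2 libraries were within or just below the WT range. DREB1A gave 2.37 (adjusted p = 0.22) without cr12_heat replicate 2, 2.61 (0.17) without cr2_heat replicate 1 and 3.31 (0.13) without cr2_heat replicate 2. DREB1B gave 3.33 (0.13) without cr12_heat replicate 2, 4.18 (0.074) without cr2_heat replicate 1 and 2.92 (0.2) without cr2_heat replicate 2.

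Smaller numbers of calls fell on light, clock and nitrogen genes. PHYB, a red-light photoreceptor, had 34 and 30.3 CPM in cr12, 52.4 and 53.1 CPM in cr2, and 40.8, 31.2 and 35.5 CPM in WT (-0.71 ± 0.13, adjusted p = 0.01), and cr2 was the line away from WT (0.56 ± 0.12, adjusted p = 0.019). It was the only one of 7 light receptor genes called. PRR95, a pseudo-response regulator of the clock, had 84.4 and 83.2 CPM in cr12, 59.8 and 59.5 CPM in cr2, and 96.5, 82.2 and 99.3 CPM in WT (0.49 ± 0.11, adjusted p = 0.028). With LOC_Os11g05930, which was 0.57 higher, it made 2 of 10 clock genes called, while LHY, a morning clock gene, stood at 95 and 83.6 CPM in cr12 and 90.2 and 93.8 CPM in cr2 (adjusted p = 0.92). NIA1, a nitrate reductase, had 14.5 and 8.81 CPM in cr12, 22 and 41.4 CPM in cr2, and 22.1, 24.6 and 14.6 CPM in WT (-1.44 ± 0.35, adjusted p = 0.036). GS2, the plastid glutamine synthetase, was lower, with a log2 change of -0.82 ± 0.22 (adjusted p = 0.048). LOC_Os02g53130 of the nitrogen list rested on 1 library: it had 0.263 and 0.168 CPM in cr12 and 1.3 and 11.2 CPM in cr2 (-4.84 ± 1.05, adjusted p = 0.021), and gave -2.55 (adjusted p = 0.2) without cr2_heat replicate 2. The 3 nitrogen genes were lower among 8 tested, with a median of -0.61. By limma voom NIA1 and LOC_Os02g53130 were not called. Without cr12_heat replicate 2 PHYB gave -0.59 (adjusted p = 0.14), PRR95 0.54 (0.12) and NIA1 -1.09 (0.33), and without cr2_heat replicate 2 they gave -0.68 (0.083), 0.51 (0.12) and -0.88 (0.32). PHYB was at -0.70 (0.053) and PRR95 at 0.52 (0.092) without cr2_heat replicate 1, and PRR95 was at 0.49 (0.077) without cr12_heat replicate 1. The nitrogen median was -0.36 without cr2_heat replicate 1.

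Single genes of other lists were called too. The antioxidant enzyme gene APX8, the cytokinin response regulator RR1 and the disulfide isomerase gene PDIL1-1 were lower in cr12, with log2 changes of -1.10, -0.70 and -0.37. APX8 and PDIL1-1 lost the call without any one of the 4 line libraries, and RR1 lost it without any but cr12_heat replicate 1, with -0.42 without cr12_heat replicate 2. None of 13 JAZ repressors of jasmonate responses was called (3 at an unadjusted p under 0.05, 2 by DESeq2, 0 by limma voom; median 0.24, and 0.50 without cr2_heat replicate 1), on a list that the study may have chosen on these samples. JAZ12 was at 151 and 231 CPM in cr12, 114 and 82.4 CPM in cr2, and 51.2, 118 and 88.2 CPM in WT (0.96 ± 0.31, adjusted p = 0.1). None of 8 genes of jasmonate synthesis and signalling was called (2, 2 and 0), and their median was 0.08, and 0.18 without cr2_heat replicate 1. Lists for phosphate and iron, abscisic acid, gibberellin, sugar and starch, phenylpropanoids and other heat-inducible genes held 7, 6, 5, 6, 7 and 4 tested genes and no call by edgeR, DESeq2 or limma voom, with 0, 0, 1, 1, 0 and 1 genes at an unadjusted p under 0.05. Their medians lay between -0.10 and 0.29, and between -0.31 and 0.59 with 1 line library left out. The median of the phosphate and iron genes turned to -0.31 without cr2_heat replicate 1. LOC_Os06g39240, of the other heat-inducible genes, had 1677 and 2077 CPM in cr12, 874 and 37.4 CPM in cr2, and 1127, 1548 and 1331 CPM in WT (2.04 ± 0.91, adjusted p = 0.25), and it was called without cr2_heat replicate 1.

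Some loci were present in 1 line and absent from the other after heat. With presence set at 1 CPM or more in both libraries of 1 line and absence at 12 counts or fewer (3 fragments) summed over the other line, 13 loci were on in cr12 and off in cr2, and 18 were on in cr2 and off in cr12. Of these 11 and 14 were called, against 5.62% of all tested genes. The loci were chosen for this gap in the same libraries, so their calls add no support. WT was also off for 8 of the 13 and for 11 of the 18. It was on for none of the 13 and for 3 of the 18, and lay between or was mixed for the rest. The same pattern was seen in untreated leaves for 9 of the 13 and 10 of the 18. It was reversed at 1 of the 18, LOC_Os06g50724, which had 0 and 0 CPM in heat-treated cr12 and 4.17 and 4.11 CPM in heat-treated cr2, but 1.55 and 3.86 CPM in untreated cr12 and 0 and 0 CPM in untreated cr2. The loci of this paragraph and the next carry no name in the sources used here and are given by ID.

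LOC_Os07g06834 had 79.8 and 104 CPM in cr12, no count in either cr2 library, and 0.14, 0.0587 and 0.175 CPM in WT, so that it was at least 1430-fold higher in cr12 against the floor of 12 counts over the cr2 group. LOC_Os03g18779 had 38.1 and 41.5 CPM in cr12 and none in cr2, at least 619-fold higher, with WT at or under 0.106 CPM. In these loci cr12 stood away from WT and cr2 did not. The opposite held for LOC_Os04g24770, without a count in cr12 or WT and at 5.84 and 6.6 CPM in cr2, at least 97.5-fold lower in cr12, and for LOC_Os11g11694, at 6.57 and 4.88 CPM in cr2 alone, at least 89.8-fold lower. LOC_Os11g17799 was absent from cr12 but had 4.99 and 4.09 CPM in cr2 and 4.56, 4.38 and 5.88 CPM in WT, at least 71.1-fold lower in cr12. LOC_Os06g09688, chosen after its values were seen, had no count in cr12, 155 and 175 CPM in cr2, and 160, 0 and 0 CPM in WT, so it also parted replicates of WT. LOC_Os06g30710 and LOC_Os09g35770, chosen in the same way, also varied within a genotype. LOC_Os06g30710 had 0.0203 and 0.0336 CPM in heat-treated cr12, 11.5 and 10.3 CPM in untreated cr12, and 0.0308, 0.0504 and 11.8 CPM in untreated WT. LOC_Os09g35770 had 0, 0 and 7.89 CPM in untreated WT. LOC_Os06g09688, LOC_Os06g30710 and LOC_Os09g35770 were not called between the lines.

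**Figure D4:**
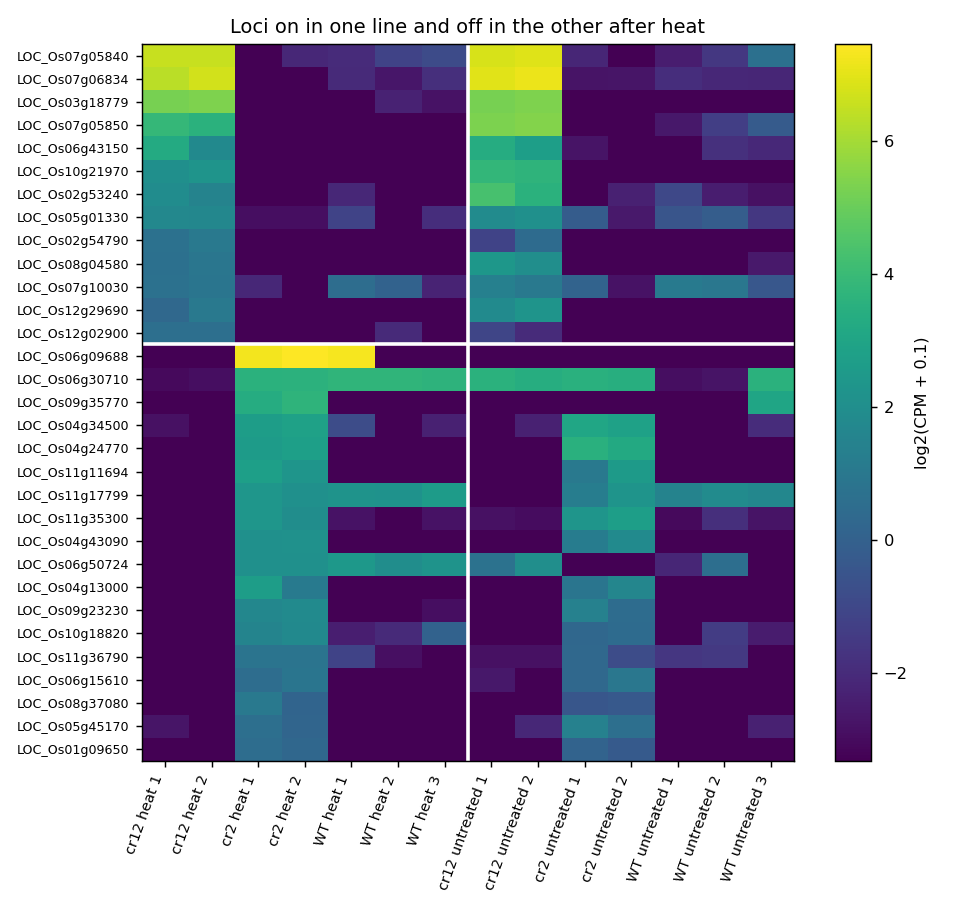
Level as log2(CPM + 0.1) (colour) of the 13 loci on in cr12 and off in cr2 after heat (above the white line) and of the 18 loci on in cr2 and off in cr12 (below it), in each library. Heat-treated libraries are left of the vertical white line and untreated libraries right of it. Most of the loci show the same pattern in untreated plants of the line (9 of 13 and 10 of 18).

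Loci present in both lines with the smallest p also parted them by wide margins. LOC_Os03g59190 had 22 and 19.5 CPM in cr12, 1.67 and 1.65 CPM in cr2, and 2.85, 2.4 and 2.41 CPM in WT (3.65 ± 0.19, adjusted p = 5e-06), with cr12 far above WT and cr2 slightly below. LOC_Os01g73000 had 27.2 and 30.4 CPM in cr12, 112 and 101 CPM in cr2, and 39.1, 28.3 and 34.5 CPM in WT (-1.89 ± 0.14, adjusted p = 0.00018), with cr2 away from WT. Both kept their calls in all 12 alternatives run, whereas LOC_Os11g11694 lost its call without cr12_heat replicate 2 (adjusted p = 0.059) and with DESeq2 (0.2). Called genes were spread over the genome: each of the 12 chromosomes had 4.75% to 6.59% of its tested genes called. Loci on in 1 line and off in the other numbered 1 to 5 per chromosome. Of these, LOC_Os07g05840, LOC_Os07g05850 and LOC_Os07g06834, all on in cr12 and off in cr2, have nearby IDs on chromosome 7. LOC_Os07g05840 had 92.8 and 93.8 CPM in heat-treated cr12, and LOC_Os07g05850 had 14.2 and 11.5 CPM. Both were picked after their values were seen, and a shared region was not tested. The longest run of neighbouring called genes was 3, with 8 such runs, 102 runs of 2 and 1392 called genes with no called neighbour.

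The lines were also compared in untreated leaves, whose libraries enter neither mean of the comparison after heat but share its fit, its filter and its estimate of spread. There 1094 genes were called (3.8% of 28823), 449 higher (1.56%) and 645 lower (2.24%) in cr12. Of the 1620 genes called after heat, 391 were called in the same direction without heat, which is 24.1% of the heat calls and 35.7% of the untreated calls, and 5 were called in the opposite direction. The sign of the difference was the same in 1404 of the 1620 (86.7%). Among the 43 called genes of the lists the sign was the same for 39, and MADS14, CHLD, CHLI and CPS2 were among those called both times. The share with the same sign was not computed over all tested genes, so how far these sign counts exceed it is not known.

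MADS14 stood at 12.7 and 15.5 CPM in untreated cr12, 4.81 and 1.49 CPM in untreated cr2, and 26, 28.4 and 32.9 CPM in untreated WT (2.16 ± 0.47 between the lines, adjusted p = 0.031). CHLD had 57.3 and 63.2 CPM in untreated cr12, 97.3 and 135 CPM in untreated cr2, and 83, 81.1 and 81.9 CPM in untreated WT (-0.95 ± 0.16, adjusted p = 0.014). In cr2 MADS14 stood below and CHLD above the range of WT with and without heat. In cr12 both MADS14 and CHLD stood below the range of WT with and without heat.

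Whether a line difference depended on heat was tested directly, as the difference with heat minus the difference without. LOC_Os07g48280 was the only gene called (0.00347% of those tested). With heat it had 29.2 and 34.4 CPM in cr12, 21.9 and 22.4 CPM in cr2, and 23.8, 26.1 and 24.7 CPM in WT. Without heat it had 17.2 and 16.9 CPM in cr12, 32.5 and 34.4 CPM in cr2, and 17, 17.7 and 16.2 CPM in WT. The line difference was 0.52 ± 0.10 after heat and -0.97 ± 0.11 without, which differ by 1.49 ± 0.15 (adjusted p = 0.011). An unadjusted p under 0.05 was reached by 3304 genes (11.5%), and DESeq2 called 551 genes and limma voom 2.

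The 4 listed genes whose sign turned between the treatments were DREB1A, DREB1B, WRKY71 and LOC_Os05g27730. DREB1A had 2.89 and 2.47 CPM in untreated cr12, 7 and 10.7 CPM in untreated cr2, and 4.84, 5.95 and 3.23 CPM in untreated WT, and its line difference changed by 4.62 ± 0.94 (adjusted p = 0.13). DREB1B had 2.77 and 0.728 CPM in untreated cr12 and 6.53 and 8.17 CPM in untreated cr2, a change of 5.46 ± 1.00 (adjusted p = 0.13). WRKY71 and LOC_Os05g27730 changed by 1.73 and 1.69 (adjusted p = 0.13 for each). For the other 39 listed genes the adjusted p of this change was at least 0.21.

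**Figure D5:**
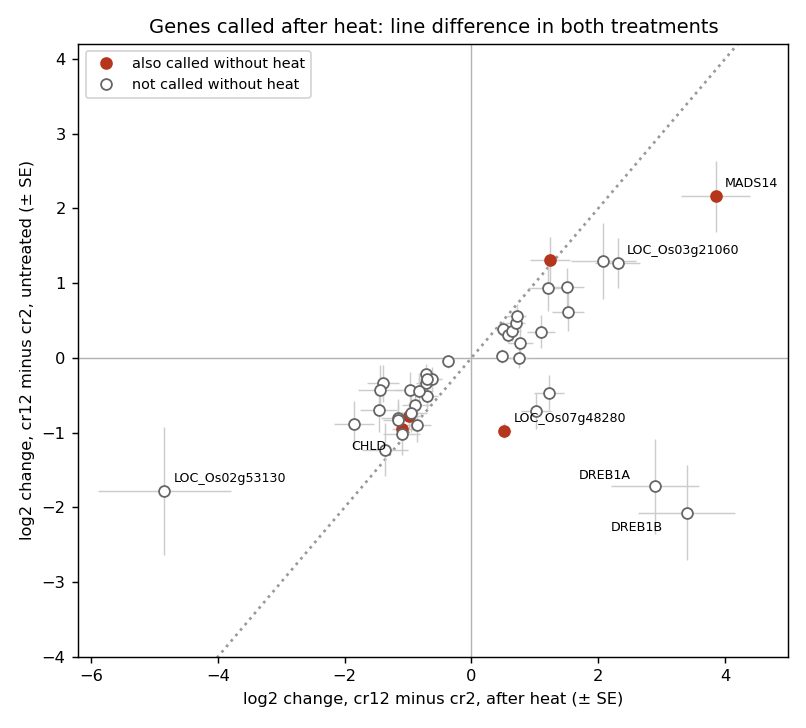
Log2 change of cr12 minus cr2 after heat (horizontal axis) and in untreated leaves (vertical axis), each ± SE, for 42 of the 43 listed genes called after heat and for LOC_Os07g48280. Red points were also called without heat, and the dotted line marks equal differences. Points at the lower right (DREB1A, DREB1B, WRKY71, LOC_Os05g27730 and LOC_Os07g48280) changed sign between treatments.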

How the data were processed

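The authors deposited 1 table of estimated counts for 55986 loci named by MSU IDs, whose values are whole numbers, so no rounding was needed. The submitters' processing notes list DESeq2, StringTie 1.3.3b, HISAT2 2.1.0 and fastp 0.20.1 and do not state what each was used for. The genome build and the strand setting are not given in the sources used here. Low values gather at multiples of 4 (9196 values equal 4, 3918 equal 3), so 1 fragment was taken as 4 counts. Depth gives counting error only, and replicates differed by far more than that (chi-square per degree of freedom of 19.8 to 25.5 in the heat groups).

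Differences were computed from these estimated counts by the quasi-likelihood F test of edgeR 4.0.16 (R 4.3.3), after TMM scaling and filterByExpr over 6 groups, in 1 fit to all 14 libraries, so groups of 2 borrow their spread from all groups. Adjusted p-values are Benjamini-Hochberg values over 28823 genes. CPM levels use the TMM-scaled library sizes. The SE of a log2 change is its size divided by the square root of F. Alternatives were DESeq2 1.42.0, voom of limma 3.58.1, other scaling and filters, fewer samples and each replicate left out. The code was tested on simulated data.

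The members and lists were chosen with earlier results of these data known. The rule for named genes took all called list members, the 3 members of each list with the largest changes (of which many uncalled ones are left out of the text), and, among unlisted loci, 2 in each direction by change and 2 by p, the same by change among those also called without heat, and those called for the difference of line differences. Of 260 listed genes, 151 symbols were found in the RefSeq gene table (assembly ASM3414082v1) on the chromosome that the ID gives and in the order of the IDs; the table holds no MSU IDs, so names come from the lists. Other members are given by ID. The results of 1 listed gene are not reported here.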

Additional observations from a re-analysis of the deposited data

Results flagged for a closer look

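LOC_Os07g48280 drew attention because its line difference itself differed between the treatments: cr12 stood above cr2 after heat and below it without heat, a difference of 1.49 on the log2 scale (edgeR, adjusted p = 0.011). Both cr12 libraries were above both cr2 libraries after heat, and both were below them without heat. Untreated cr2, at 32.5 and 34.4 CPM, was the group farthest from untreated WT, at 16.2 to 17.7 CPM. Over 15 alternatives the difference ranged from 1.45 to 1.66 and its call was lost in 1.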

How the results depend on the processing

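DESeq2 called 2912 genes between the lines after heat where edgeR called 1620 (49% of them higher in cr12, against 38.7%), 3521 for cr12 against WT, 4428 for cr2 against WT (42.3% higher, against 53.2%), 3153 between untreated lines, 551 for the difference and 67 of the listed genes, with 885 genes departing in cr12 only and 1034 in cr2 only. A fit to heat libraries alone gave 776, 334 and 960 calls for the first 3 comparisons, 84 and 239 departing genes and 20 listed genes. A fit to only the groups compared, with fewer samples, gave 628, 95 and 292, then 22 between untreated lines, 14 and 80 departing genes and 23 listed genes. For cr12 against WT, 50.8% of calls were higher with limma voom, 61.1% with heat libraries alone and 72.6% with only the groups compared, against 41.8%; for cr2 against WT 45.3% were higher with RLE scaling. The difference between treatments gave 2 calls with limma voom, 22 with no filter, 3 with at least 1 CPM in 2 libraries and 3 with counts divided by 4. LOC_Os07g48280 lost its call with only the groups compared (adjusted p = 0.11). With each replicate left out, calls ranged from 87 to 1236 between the lines after heat, 142 to 2039 for cr12 against WT, 142 to 2507 for cr2 against WT, 64 to 1746 between untreated lines and 2 to 17 for the difference. Departing genes ranged from 24 to 450 (cr12 only) and 44 to 451 (cr2 only), and listed calls from 1 to 31. Of 52 called named genes, 7 kept their call in every alternative run, 45 lost it in at least 1 and 0 changed direction. The causes were not tested. No scaling moved the median of all genes by over 0.1. No paired analysis was possible because the columns carry no replicate numbers in the labels. With 2 libraries per line, differences that miss the threshold do not show that the lines are alike.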
